A study of Physcomitrium patens with 24 samples.

Results

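The 150 genes described here stood within a narrow limit of their 24 °C level, relative to the median gene, after 1, 6 and 12 h at 37 °C in protonemata of the moss P. patens, and well below it after 24 h. They were chosen from the measured values, out of 32926 genes counted. A gene entered the choice if its mean over the 8 libraries at 24 °C was at least 1 CPM (counts per 1e+06 counts of the library), which left 18076 genes. For each heated group, the difference from 24 °C was the log2 ratio of mean CPM + 1 to that of the 24 °C group harvested at the same time, minus the median of this ratio over the 18076 genes. Genes with a difference of -1 or less after 24 h at 37 °C, and between -0.5 and 0.5 after 1, 6 and 12 h, numbered 193, and the 150 with the lowest 24 h difference were taken. The median that was subtracted at 37 °C ran from -0.45 (1 h) to 0.13 (24 h), and without this centring 66 of the 150 met the limits. At the limit, Pp3c14_1150 (difference -1.127, mean 33.1 CPM at 37 °C and 66.9 CPM at 24 °C) and Pp3c3_21750 (-1.126, 73.7 and 147.6 CPM) were just inside, and Pp3c24_19140 (-1.120, 63.0 and 125.7 CPM) and Pp3c6_29123 (-1.112, 1.58 and 4.08 CPM) were just outside.

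Protonemata of the Gransden strain, without any transgene in the labels, were grown on agar plates in a long-day photoperiod, and messenger RNA was sequenced after 1, 6, 12 or 24 h at 37 °C, at 30 °C or at the control temperature of 24 °C. Each of the 12 groups had 2 libraries, which the study's methods call biological replicates, and no group from before the treatment was analysed here. The hour of the day of each harvest is not given in the sources used here. Time at a temperature and time of day therefore cannot be told apart within 1 temperature.

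Protonemata are the filaments that a moss spore first forms, and most of their cells are green and photosynthetic. In plants, heat that unfolds proteins sets off within a short time the synthesis of heat shock proteins, which hold or refold other proteins, while many genes of growth and metabolism are transcribed less. Many moss and plant genes also follow the light and dark cycle, so that a gene's control level is not constant through a day. The tables used here give a product name to 526 genes and to 0 of the 150, and 0 of the gene IDs of the files were matched in the reference table, so the genes are given by their IDs and without a function. For the same reason 0 of the 150 were in any of 17 lists of gene names (among them photosystems and light harvesting, carbon fixation, chaperones, light and clock, and transcription factors). The tables name too few genes of green tissue for a check of the labelled tissue: 1 PsbP-like gene of photosystem II, Pp3c1_24790, was at 41.9 to 124.7 CPM over the 24 °C libraries, and 2 genes named as small chains of Rubisco, the carbon-fixing enzyme, were near 0 (Pp3c3_12330, at most 0.164 CPM) or low (Pp3c3_12530, 0.109 to 10.3 CPM).

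Library totals ran from 4332911 to 10696081 counts. Replicates differed most after 1 h at 37 °C (chi-square per gene 40.3, against 2.90 for 24 °C 24 h). The groups that define the 24 h difference were among the closest pairs by this value (6.27 for 37 °C 24 h). The value is on raw counts and also depends on depth. The 24 °C 24 h libraries had totals of 6328277 and 4552626, so its 2.90 may in part reflect low depth. In these bulk samples, fewer cells of a type and less RNA per cell cannot be told apart.

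The low level after 24 h at 37 °C chose the genes, so it is given as a description. The 24 h difference from 24 °C ran from -3.42 to -1.13 with a median of -1.46, where 21.2% of the 18076 genes were at -1 or less. In all 150 genes both 37 °C libraries lay below both 24 °C libraries, against 34.4% of the 21429 genes tested, and in 86 genes they also lay below the other 22 libraries of the series (4.95% of the genes tested). The median gene had a mean of 34.1 CPM at 37 °C and 83.0 CPM at 24 °C. Together the 150 genes took 0.991% ± 0.0814 of all counts after 24 h at 37 °C, against 3.48% ± 0.115 at 24 °C (SD, n = 2 each). The same share was 3.06% ± 0.205 at 37 °C and 3.76% ± 0.144 at 24 °C after 1 h, 3.35% ± 0.267 and 3.46% ± 0.0714 after 6 h, and 2.34% ± 0.0928 and 2.87% ± 0.182 after 12 h.

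The earlier differences were bounded by the rule, yet not centred alike. The median difference at 37 °C was 0.0066 at 1 h, 0.0053 at 6 h and -0.19 at 12 h, and 111 of the 150 were below 0 at 12 h.

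**Figure D1:**
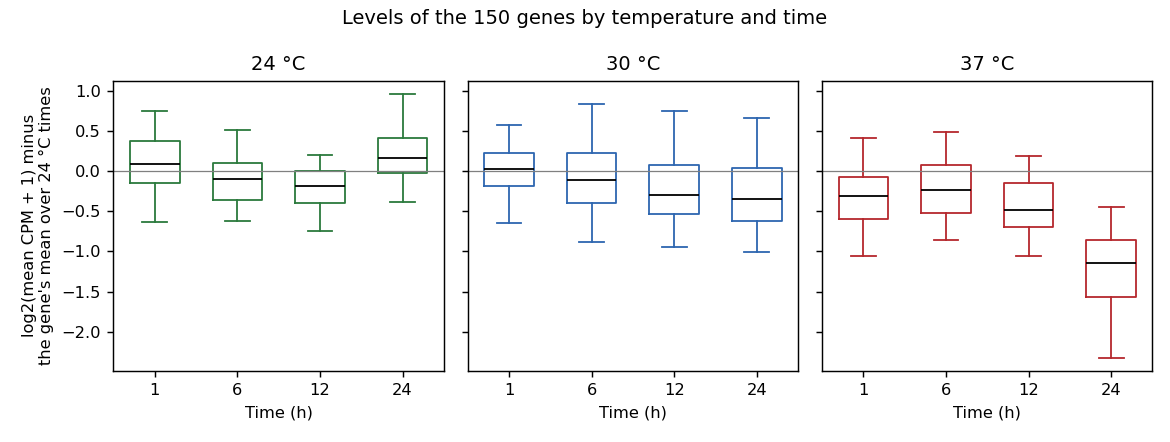
Levels of the 150 genes by time (x axis, h) at 24, 30 and 37 °C, as log2(mean CPM + 1) minus each gene's mean over the 4 times at 24 °C. The line in each box is the median, the box spans the quartiles and the whiskers the 5th to 95th percentile of genes; at 37 °C the median is -0.31, -0.24, -0.48 and -1.14 after 1, 6, 12 and 24 h, and at 24 °C it is lowest after 12 h (-0.18) and highest after 24 h (0.16).

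A low 24 h difference can come from a lower 37 °C level, a higher 24 °C level, or both, and the genes were of all these kinds. Between 12 and 24 h, on the scale of log2(mean CPM + 1) without centring, 74 genes (49.3%) dropped by at least 0.5 at 37 °C without a rise of that size at 24 °C. In 45 genes (30%) the 24 °C level went up by at least 0.5 while the 37 °C level did not drop by that much. In 18 genes (12%) both occurred, and in 13 (8.67%) neither step reached 0.5. The median change from 12 to 24 h was -0.70 at 37 °C and 0.39 at 24 °C, against 0.021 and -0.16 over the 18076 genes. These changes come from libraries that the rule used, and no test was made on them.

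**Figure D2:**
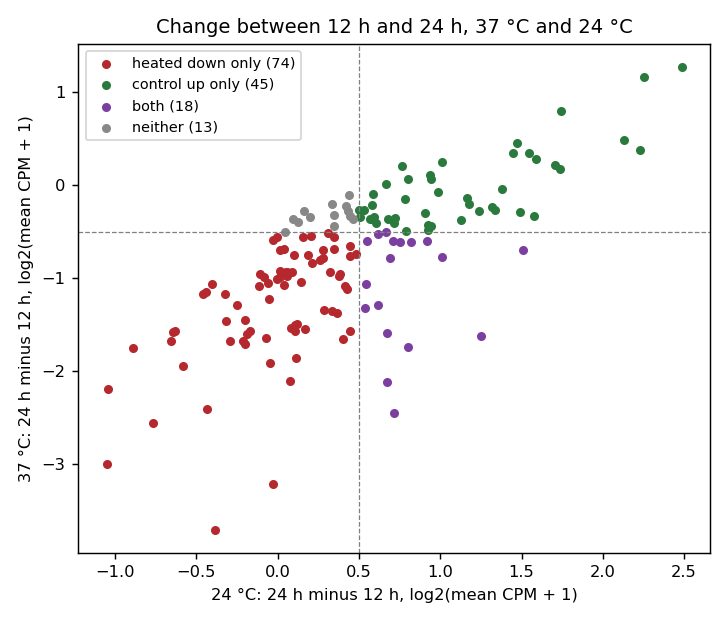
Change from 12 to 24 h at 37 °C (y axis) against that at 24 °C (x axis), both in log2(mean CPM + 1), 1 point for each of the 150 genes. Dashed lines mark the limits of 0.5 that set the colours; 74 points lie in the class with a drop at 37 °C alone, 45 in the class with a rise at 24 °C alone, 18 in both and 13 in neither.

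The 24 °C libraries give the time course of these genes without heat. At 24 °C, 64 of the 150 (42.7%) had their lowest mean after 12 h, against 12.9% of the 18076 genes, and 61 (40.7%) had their highest after 1 h, against 18.3%. A further 50 (33.3%) were highest after 24 h, against 20.9%. Low levels at 12 h and high levels at both ends of the course were thus frequent among the controls themselves. At 37 °C, 115 of the 150 had their lowest mean after 24 h, against 15.2% of the 18076 genes, and 7 had their highest there, against 35.9%. These counts come from libraries that the rule used.

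Among the 10 genes with the lowest 24 h difference, 4 had a drop at 37 °C alone, 5 had both steps and 1 had a rise at 24 °C alone. Pp3c5_4200 had the lowest difference (-3.42): it was at 32.4 and 28.9 CPM in the 37 °C 24 h libraries and at 292 and 324 CPM in the 24 °C ones. After 12 h it had been at 435 and 386 CPM at 37 °C and 456 and 350 CPM at 24 °C, where the libraries overlapped. After 6 h it was at its highest at both temperatures, with 584 and 451 CPM at 37 °C and 655 and 718 CPM at 24 °C. From 12 to 24 h its log2(mean CPM + 1) changed by -3.70 at 37 °C and by -0.39 at 24 °C.

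Pp3c5_17290 and Pp3c6_22090 had the same 6 h maximum. Pp3c5_17290 was at 70.0 and 63.8 CPM after 24 h at 37 °C, against 596 and 629 CPM at 24 °C, while after 12 h it was at 678 and 574 CPM at 37 °C and 700 and 547 CPM at 24 °C. Pp3c6_22090 was at 63.9 and 49.2 CPM after 24 h at 37 °C, against 265 and 301 CPM at 24 °C. Neither gene went up at 24 °C between 12 and 24 h (-0.03 for Pp3c5_17290 and -0.43 for Pp3c6_22090), so the 37 °C drop alone made the difference.

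Pp3c15_23330, Pp3c18_18400, Pp3c8_16580, Pp3c22_14530 and Pp3c22_12800 had both steps. Pp3c15_23330 was at 20.3 and 23.0 CPM after 24 h at 37 °C, against 207 and 221 CPM at 24 °C, having been at 142 and 103 CPM at 37 °C and 132 and 128 CPM at 24 °C after 12 h. Pp3c18_18400 was at 184 and 210 CPM after 24 h at 37 °C, against 1443 and 1566 CPM at 24 °C. Pp3c8_16580 was at 48.4 and 46.9 CPM at 37 °C, against 310 and 400 CPM at 24 °C. In all 3 the groups were far apart, and the 24 °C level had gone up by 0.71 to 1.25 since 12 h.

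In Pp3c22_14530 the control made the larger part. It was at 166 and 163 CPM after 24 h at 37 °C, against 1017 and 1168 CPM at 24 °C, and at 290 and 244 CPM at 37 °C and 396 and 370 CPM at 24 °C after 12 h. Its change from 12 to 24 h was -0.69 at 37 °C and 1.51 at 24 °C. Pp3c22_12800 was at 24.7 and 24.5 CPM after 24 h at 37 °C, against 132 and 129 CPM at 24 °C, with a change of -2.11 at 37 °C and 0.67 at 24 °C.

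The remaining 2 of the 10 stood apart. Pp3c6_25270 was at 74.0 and 94.2 CPM after 24 h at 37 °C, against 458 and 410 CPM at 24 °C, and its 24 °C level itself had dropped by 1.05 since 12 h (895 and 904 CPM). Its 37 °C replicates differed after 12 h, at 911 and 442 CPM. Pp3c3_12462 was at 0.549 and 0.472 CPM after 24 h at 37 °C and at 4.74 and 7.91 CPM at 24 °C. Its level varied over time without heat, with 15.9 and 20.6 CPM after 1 h at 24 °C. Its 37 °C level after 24 h was no lower than after 12 h (0 and 0.331 CPM). The whole of its difference came from the 24 °C libraries, which were at 0.467 and 0.654 CPM after 12 h.

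**Figure D3:**
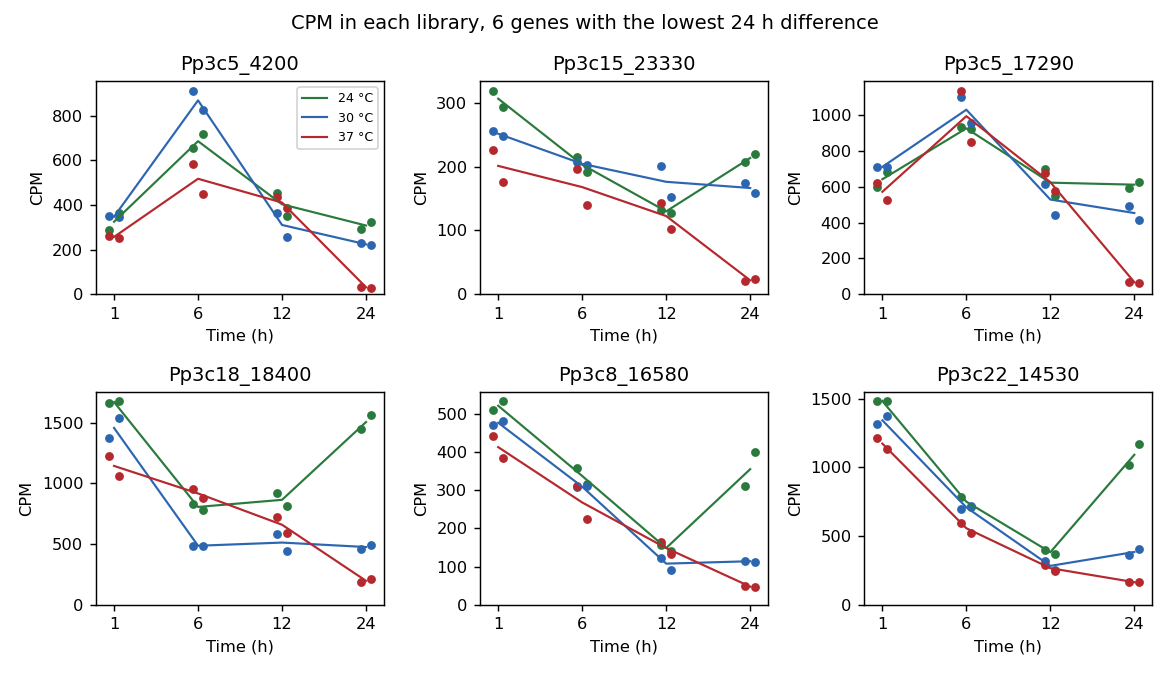
CPM (y axis) by time (x axis, h) of the 6 genes with the lowest 24 h difference, 1 point per library and lines through the means of 2 libraries, at 24 °C (green), 30 °C (blue) and 37 °C (red). The 37 °C libraries lie among or near the others until 12 h and below all of them at 24 h, while Pp3c15_23330, Pp3c18_18400, Pp3c8_16580 and Pp3c22_14530 also go up at 24 °C between 12 and 24 h, by more than at 30 °C.

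Other genes were singled out after their values were seen. The most abundant of the 150, Pp3c5_13519, stayed between 5155 and 5814 CPM in the 24 °C libraries of 1, 6 and 12 h. It was at 1006 and 1630 CPM after 24 h at 37 °C, against 5879 and 5649 CPM at 24 °C, and at 3780 and 3834 CPM at 37 °C and 5609 and 5299 CPM at 24 °C after 12 h, when it was already near the lower limit of the rule (centred difference -0.45). Next in level were Pp3c7_14450, at 629 and 528 CPM at 37 °C against 2335 and 2461 CPM at 24 °C after 24 h, and Pp3c19_3750, at 402 and 570 CPM against 2121 and 2180 CPM.

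At the other end were genes whose 37 °C level had gone up since 12 h. Pp3c5_8230 was at 23.8 and 31.3 CPM after 24 h at 37 °C, against 95.1 and 76.9 CPM at 24 °C, and at 10.9 and 12.6 CPM at 37 °C and 19.9 and 14.5 CPM at 24 °C after 12 h. Pp3c8_2950 was at 16.2 and 18.4 CPM after 24 h at 37 °C, against 33.0 and 37.8 CPM at 24 °C, and its 37 °C libraries after 12 h had 4.19 CPM in replicate 2 and 8.996 CPM in replicate 1. Both went up at both temperatures, by 1.17 and 1.27 at 37 °C and by 2.26 and 2.49 at 24 °C, and the rule chose them because the control went up further.

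Levels were spread widely, with means from 0 to 1318 CPM after 24 h at 37 °C and from 1.15 to 5764 CPM at 24 °C. In 19 of the 150 both 37 °C 24 h libraries held fewer than 10 reads, so their differences rest on few counts. In Pp3c12_9961 both were at 0. By their IDs, the genes came from all 27 chromosomes, with 13 (8.67%) on chromosome 5, which holds 4.12% of the 18076 genes, 10 (6.67%) on chromosome 4, which holds 4.54%, and 9 (6%) on chromosome 15, which holds 3.82%. Pp3c13_10540 and Pp3c13_10550 were the only pair with adjacent locus numbers. Their CPM ratio stayed between 0.862 and 0.920 over all 24 libraries, and whether they share reads was not tested, so they may not count as 2 genes. Counts made without the strand, as by the counter's default, can also mix a gene with an antisense or overlapping one.

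The 30 °C libraries played no part in the choice of the genes. Set against 24 °C, they share the control libraries with the rule, so these differences are given without a test. The median difference of the 150 at 30 °C was 0.022 at the 1 h harvest, -0.014 at 6 h, -0.12 at 12 h and -0.67 at 24 h. After 24 h, 49 genes (32.7%) were at -1 or less, against 10.5% of the 18076 genes, and 3 were at 1 or more, against 8.6%. At 1, 6 and 12 h, 0 genes were at -1 or less, where the background was 1.48%, 1.55% and 1.85%. After 24 h, 98 genes had both 30 °C libraries below both 24 °C libraries (background 23.9%), and 20 had them above (48.8%). These 2 counts and their backgrounds are on CPM without TMM factors, which were 1.14 and 1.17 at 30 °C and 0.999 and 0.987 at 24 °C.

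After 24 h the 37 °C level was below the 30 °C level in most genes. Both 37 °C libraries were below both 30 °C libraries in 126 genes (background 40.1%) and above them in 7 (37.1%). The low 37 °C level at 24 h chose the genes, so these counts are a description and were not tested. The set's share of all counts after 24 h was 3.48% at 24 °C, 2.60% ± 0.0517 at 30 °C (SD, n = 2) and 0.991% at 37 °C. Of these 3 shares, the first and the last come from libraries that the rule used. The size of the 30 °C difference went with the part the control took in the choice. Its median was -1.17 among the 45 genes that only went up at 24 °C, -1.13 among the 18 with both steps and -0.37 among the 74 that only dropped at 37 °C. The first 2 classes owe their choice in part to the 24 °C 24 h libraries, which this difference shares.

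Within 30 °C, the levels compared come from no library that the rule used, and only these comparisons were tested. The spread in the test was estimated over all 24 libraries, those of the rule included. All 21429 genes were tested in 1 edgeR quasi-likelihood model with Benjamini-Hochberg adjustment, a call being an adjusted p under 0.05 with a log2 change of size 1 or more, and all 150 had passed its filter on low values. After 24 h at 30 °C compared with 1 h, 54 of the 150 (36.0%) fell and 5 (3.33%) rose, against a background of 8.75% and 11.1%. The median log2 fold change was -0.80 over the 150 and 0.076 over all genes tested, with a median standard error of 0.18 among the 150. The other 3691 genes that were at -1 or less after 24 h at 37 °C, whether or not they were within the limits before it, had 28.6% that fell and a median of -0.49. The 150 were thus nearer to these than to all genes, and no test of that difference was made.

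Scaling moved these counts. With library totals alone in place of the TMM factors, the median of all genes shifted to 0.49 and 24 of the 150 fell and 9 rose, against a background of 4.53% and 20.7%. On either scaling, at the limit of 1, more of the 150 fell than rose, while over all genes tested more rose than fell. Among the 18076 genes that could enter the choice, 10.1% fell and 10.6% rose with the TMM factors. The split over all genes turned with other limits. With no fold change limit 4060 fell and 3774 rose, and with limma-voom with treat 545 fell and 273 rose.

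Compared with 6 h at 30 °C, 21 genes (14%) fell after 24 h and 3 (2.0%) rose, against a background of 3.38% and 3.3%, with a median log2 fold change of -0.26. In the other 3691 genes 10.6% fell, and among the 18076 genes that could enter the choice 3.94% fell and 2.99% rose. Of the 150, 14 fell in both comparisons (background 1.66%), 61 in at least 1 of them (10.5%), and 3 rose in both (2.1%). The 1 h, 6 h and 12 h comparisons share the 30 °C 24 h libraries.

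Compared with 12 h at 30 °C, 0 genes fell and 0 rose after 24 h in edgeR, against a background of 0.117% and 0.0653%. At an unadjusted p under 0.05 there were 7 lower and 8 higher, DESeq2 called 0 and limma-voom with eBayes called 1 higher, Pp3c20_21510. The lowest adjusted p of edgeR among the 150 was 0.181. The median log2 fold change was -0.026 with a median standard error of 0.18, and single estimates ran from -1.25 to 2.05. With so few genes called among all those tested, a count of 0 is near the background and nothing is read from it.

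**Figure D4:**
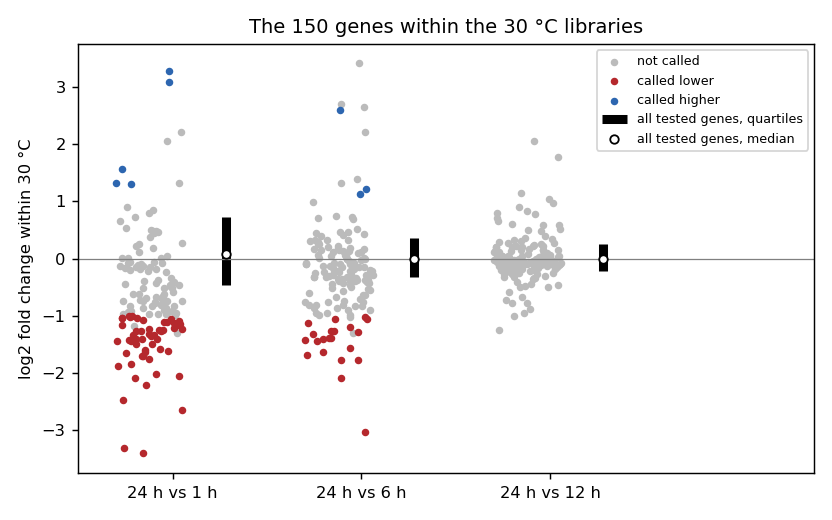
Log2 fold change within the 30 °C libraries (y axis) after 24 h compared with 1 h, 6 h and 12 h, 1 point for each of the 150 genes, with genes called lower by edgeR in red and higher in blue. The black bars span the quartiles of all 21429 genes tested and the white points their medians (0.076, -0.008 and -0.002); 54, 21 and 0 of the 150 are called lower and 5, 3 and 0 higher.

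Among the 10 leading genes, 8 fell after 24 h at 30 °C compared with 1 h (background 8.75%). Under library totals alone 4 of these calls were lost (background 4.53%). The other 2 were under the limit of 1 and went opposite ways. Pp3c6_25270 was higher (0.90, SE 0.26, adjusted p = 0.0126 by edgeR) and Pp3c6_22090 lower (-0.86, SE 0.18, adjusted p = 0.0012). Pp3c22_14530 was at 360 and 409 CPM after 24 h and at 1315 and 1373 CPM after 1 h (log2 fold change -2.22, SE 0.15, adjusted p = 2.54e-08 by edgeR). Pp3c8_16580 was at 115 and 113 CPM after 24 h and at 472 and 482 CPM after 1 h (-2.47, SE 0.19, adjusted p = 7.02e-08). Pp3c18_18400 was at 456 and 495 CPM after 24 h and at 1376 and 1536 CPM after 1 h (-2.03, SE 0.15, adjusted p = 5.56e-08). In all 3 the libraries of the groups lay far apart.

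These genes differed in when they had come down. Pp3c18_18400 was already at 486 and 486 CPM after 6 h at 30 °C, where 24 °C was at 829 and 782 CPM, and did not pass the test between 6 and 24 h (log2 fold change -0.17, SE 0.15, adjusted p = 0.501). Pp3c8_16580 was at 309 and 310 CPM after 6 h and at 124 and 92.1 CPM after 12 h. Pp3c22_14530 was at 697 and 722 CPM after 6 h and at 315 and 251 CPM after 12 h. At 24 °C all 3 were lower after 12 h than after 1 h as well. From 12 to 24 h the log2(mean CPM + 1) of Pp3c18_18400, Pp3c8_16580 and Pp3c22_14530 changed by -0.11, 0.08 and 0.44 at 30 °C, and by 0.80, 1.25 and 1.51 at 24 °C.

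Pp3c5_4200 and Pp3c6_22090 came down from their 6 h maximum at 30 °C too. Pp3c5_4200 was at 228 and 219 CPM after 24 h and at 912 and 827 CPM after 6 h (-2.09, SE 0.19, adjusted p = 4.29e-06), and at 348 and 346 CPM after 1 h (-1.05 compared with 1 h, SE 0.19, adjusted p = 0.000362, and -0.64 under library totals alone, no longer called). Pp3c6_22090 was at 254 and 227 CPM after 24 h and at 788 and 713 CPM after 6 h (-1.77, SE 0.18, adjusted p = 1.11e-05). At 24 °C Pp3c5_4200 was at 292 and 324 CPM after 24 h and at 655 and 718 CPM after 6 h, so a drop from 6 to 24 h was there without heat.

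Pp3c3_12462 fell after 24 h at 30 °C compared with both 1 h (log2 fold change -3.32, SE 0.38, adjusted p = 4.99e-06) and 6 h (-3.03, SE 0.38, adjusted p = 6.4e-05), from low levels. It was at 2.34 and 3.43 CPM after 24 h, at 26.2 and 17.3 CPM after 6 h and at 22.5 and 21.1 CPM after 1 h. The falls of Pp3c15_23330 (-1.01, SE 0.18), Pp3c5_17290 (-1.06, SE 0.19) and Pp3c22_12800 (-1.31, SE 0.22) against 1 h were smaller, and the first 2 stand near the limit of 1. Under library totals alone they were not called either, with -0.60, -0.65 and -0.90.

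The 3 most abundant genes differed from each other at 30 °C. Pp3c7_14450 fell after 24 h compared with 1 h, with 1894 and 2248 CPM after 24 h and 4210 and 4072 CPM after 1 h (-1.41, SE 0.16, adjusted p = 3.65e-06 by edgeR). Its mean CPM, without TMM factors, was 2071 after 24 h and 4141 after 1 h, a log2 change close to the limit of 1. Pp3c5_13519 was at 6181 and 5351 CPM after 24 h and at 5068 and 5204 CPM after 1 h, and did not pass the test (-0.24, SE 0.16, adjusted p = 0.259). Its sign turns under library totals alone (0.17). Pp3c19_3750 was at 1518 and 2049 CPM after 24 h and at 1675 and 1935 CPM after 1 h (-0.43, SE 0.18, adjusted p = 0.069).

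The 5 genes that rose after 24 h at 30 °C compared with 1 h are named after their values were seen, and all are of low level. Pp3c4_9790 was at 18.7 and 16.6 CPM after 24 h and at 4.51 and 4.47 CPM after 1 h (log2 fold change 1.56, SE 0.30, adjusted p = 0.000697 by edgeR). Pp3c20_21510 was at 20.7 and 18.4 CPM after 24 h and at 5.86 and 5.95 CPM after 1 h (1.31, SE 0.33, adjusted p = 0.00461). Pp3c3_27000 was at 34.2 and 31.4 CPM after 24 h and at 1.8 and 3.28 CPM after 1 h (3.27, SE 0.75, adjusted p = 0.00252), and its 12 h libraries, at 6.64 and 30.5 CPM, did not resemble each other.

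The same 3 genes rose compared with 6 h as well, and these 3 calls were lost when either 6 h library or replicate 1 of 24 h was left out, with 0 rises in each case. Their log2 fold changes compared with 6 h stayed positive with 1 library left out, from 2.19 to 3.16 for Pp3c3_27000, from 1.06 to 1.39 for Pp3c20_21510 and from 1.02 to 1.23 for Pp3c4_9790. Pp3c3_2060 was at 5.73 and 5.31 CPM after 24 h and at 1.35 and 1.94 CPM after 1 h (1.33, SE 0.43, adjusted p = 0.022), a call that was lost without either 1 h library or without replicate 1 of 24 h. Pp3c17_11310 was at 4.82 and 3.98 CPM after 24 h and at 0.451 and 0.298 CPM after 1 h (3.10, SE 0.71, adjusted p = 0.00274).

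The classes also differed in how many genes fell at 30 °C between 1 and 24 h, as counts without a test. Of the 18 genes with both steps 13 (72.2%) fell, of the 45 that only went up at 24 °C 19 (42.2%), of the 74 that only dropped at 37 °C 17 (23.0%) and of the 13 with neither step 5 (38.5%), where the background was 8.75%. Compared with 6 h, where the background was 3.38%, 15 of the 74 that only dropped at 37 °C fell. So did 3 of the 18 with both steps, 2 of the 45 that only went up at 24 °C and 1 of the 13 with neither.

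The order of times at 30 °C needs no threshold but depends on the scaling, here CPM without TMM factors. At 30 °C, 55 of the 150 (36.7%) had their lowest mean after 24 h, against 13.8% of the 18076 genes, and 69 (46%) had their highest after 1 h, against 18.5%. In 87 genes both 24 h libraries lay below both 1 h libraries (background 17.1%), and in 35 they lay above (57.7%). On log2(mean CPM + 1) the median change from 1 to 24 h was -0.043 at 24 °C, -0.36 at 30 °C and -0.82 at 37 °C, where the 18076 genes had 0.084, 0.38 and 0.60. The TMM factors were 0.865 and 0.875 for the 30 °C 1 h libraries and 1.14 and 1.17 for the 30 °C 24 h ones. With these factors the median log2 fold change at 30 °C was 0.002 over the 18076 genes and -0.80 over the 150. The backgrounds of this paragraph therefore do not show that most genes rose at 30 °C.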

How the data were processed

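Raw counts per gene, deposited by the authors for each of 24 libraries, were used. Per the study's methods and the submitters' processing notes, the authors demultiplexed paired reads with bcl2fastq 1.8.4, aligned them with BWA 0.7.17.1 and counted them with featureCounts at default settings; libraries were strand-specific and selected for polyA.

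CPM values printed are counts per 1e+06 counts of the library, without TMM factors. Counts of genes with libraries below or above others rest on these values. Tests used edgeR 4.0.16 in R 4.3.3: 21429 genes over 0.5 CPM in 2 or more libraries, TMM factors and 1 quasi-likelihood model of the 12 groups over 24 libraries. Adjusted p-values are Benjamini-Hochberg over all genes tested, and a call needs an adjusted p under 0.05 and a log2 change of size 1 or more. The standard error is the log2 fold change divided by the square root of F. Only contrasts within 30 °C were tested, since the rule used the other 16 libraries. The code was tested on simulated data.

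The genes, lists and classes were chosen with earlier results of these data known. Genes named are the 10 with the lowest 24 h difference, 2 on either side of the limit, and others said to be chosen after their values were seen. Alternatives were DESeq2 1.42.0, limma 3.58.1 (voom with eBayes or treat), RLE scaling, library totals, other filters, no fold change limit, the 30 °C libraries alone, the replicate number as a block and each library left out, and for the rule TMM scaling, no centring and pseudocounts of 0.5 and 2. Promoter motifs and sequences were not analysed here.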

Additional observations from a re-analysis of the deposited data

Results flagged for a closer look

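In 5 of the named genes the 2 heat treatments went opposite ways after 24 h: both 37 °C libraries lay below both 24 °C libraries and both 30 °C libraries lay above them. The difference between the treatments was not tested, and the 37 °C direction was fixed by the choice of the genes. Pp3c12_14250, Pp3c3_27000, Pp3c20_21510 and Pp3c4_9790 were named because of high 30 °C values, so their 30 °C direction was chosen too. Only Pp3c6_25270 was named by its 37 °C difference. The share of all genes that went opposite ways was not counted. Pp3c6_25270 was at 74.0 and 94.2 CPM at 37 °C and 925 and 808 CPM at 30 °C, against 458 and 410 CPM at 24 °C (centred log2 difference -2.49 at 37 °C and 0.79 at 30 °C). Pp3c12_14250 was at 85.3 and 102 CPM at 37 °C and 680 and 471 CPM at 30 °C, against 216 and 233 CPM at 24 °C (-1.39 and 1.15). Pp3c3_27000 was at 1.43 and 1.26 CPM at 37 °C and 34.2 and 31.4 CPM at 30 °C, against 3.48 and 5.27 CPM at 24 °C (-1.33 and 2.45). For Pp3c20_21510 the differences were -1.39 at 37 °C and 1.14 at 30 °C, and for Pp3c4_9790 they were -1.45 and 0.88. Of the 150 genes, 20 had both 30 °C libraries above both 24 °C libraries after 24 h, where the background was 48.8%, on CPM without TMM factors.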

How the results depend on the processing

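The number of genes that met the rule was 193 as reported. It was 97 without centring on the median, 66 of them among the 150, between 187 and 193 with TMM scaling or another pseudocount, and between 172 and 214 with 1 library left out (112 to 150 of the 150 still met it). For 24 h compared with 1 h at 30 °C, 59 of the 150 changed (54 lower, 5 higher). Library totals alone gave 33 (24 lower, 9 higher), no fold change limit 97 (88 lower, 9 higher) and limma-voom with treat 19 (19 lower, 0 higher); with 1 library left out there were 53 to 63 (48 to 59 lower, 4 to 8 higher). For 24 h compared with 6 h, 24 changed (21 lower, 3 higher), against 45 without a fold change limit (42 lower) and 3 with treat (3 lower, 0 higher), and 20 to 28 with 1 library left out (20 to 25 lower, 0 to 3 higher). For 24 h compared with 12 h the count of 0 was 1 with limma-voom with eBayes and 0 in the other alternatives, each library left out included. With the 30 °C libraries alone, 50 of the 150 were lower and 5 higher compared with 1 h, against 1764 and 2546 over all genes. Compared with 6 h, 20 were lower and 4 higher, against 677 and 940. The cause of these moves was not tested, other than the fold change limit itself. With the replicate number as a block, 60, 24 and 0 of the 150 changed compared with 1, 6 and 12 h. The main model did not treat the numbers as pairs. Correlations of same-numbered deviations at 30 °C ran from -0.0029 to 0.211, with 2 of 6 over 0.1. Over the 12 groups they ran from -0.186 to 0.331, with 21 of 66 over 0.1. These values do not settle whether the numbers pair the libraries. Over the log2 fold changes of the named genes, 575 alternatives kept direction and call, 57 lost the call and 10 gained it. In 2 the sign turned: Pp3c5_13519 was at 0.17 compared with 1 h under library totals alone, and Pp3c22_12800 ran from -0.54 to 0.016 compared with 6 h with 1 library left out, neither of them called. With 2 libraries per group and under 10 reads in both 37 °C 24 h libraries of 19 genes, depth and replication limit the low genes most.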
